A study of Rattus norvegicus with 6 samples.

Results

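The histone genes were examined in lung RNA from which ribosomal RNA had been depleted and which was not selected for poly(A) tails. A gene was taken as a member when its name in the deposited transcript table began with Hist1h to Hist4h, H1f, H2af or H3f3. This gave 45 gene names of 21655 in the table, with 79 transcripts of 70376. By their names, 35 of the 45 were counted as replication-dependent and 10 as variant histones, and FPKM (fragments scaled by transcript length and by library total) were summed over the transcripts of each name.

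The samples were lungs of Sprague-Dawley (SD) rats that were 7 weeks old at the start. The 3 PF model rats were given bleomycin at 7 mg/kg, instilled into the trachea at a single time under anesthesia. The 3 control rats were given the same volume of saline. No other treatment and no allele is named for either group. Lungs were taken on day 28, when bleomycin lungs serve as a model of pulmonary fibrosis (PF). Each rat gave 1 library, made according to the labels with a stranded kit and sequenced as paired reads of 150 bases, so that n = 3 for each group and every value stands for whole lung tissue. In such tissue, fewer cells of a type and less RNA per cell cannot be told apart.

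Replication-dependent histone genes supply the core histones H2A, H2B, H3 and H4 and the linker histone H1 while DNA is copied. Their mRNAs lack introns and end in a conserved stem-loop in place of a poly(A) tail, which is why libraries made by poly(A) selection largely miss them. Variant histones such as H3.3 (H3f3a and H3f3b), H2A.Z (H2afz and H2afv) and macroH2A (H2afy and H2afy2) are made from spliced, polyadenylated mRNAs throughout the cell cycle and also in cells that no longer divide.

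The promoters of both classes are shown here because the classes differed in the motifs that lie before their start sites. Of the 45 names, 33 were matched to a single RefSeq gene with a promoter entry in the GRCr8 assembly, 25 of them replication-dependent and 8 variant. The match used names, synonyms and chromosomes, not position or strand, so a RefSeq gene can be another copy than the one measured. Each line gives the 150 bases before the RefSeq start of the gene, 5′ to 3′ on the strand of the gene. Capitals mark 3 motifs searched on both strands, the CCAAT box (CCAAT or ATTGG), the TATA box (TATAAA or its complement) and the octamer (ATTTGCAT or ATGCAAAT). None of these motifs lies within another.
Hist2h2aa2: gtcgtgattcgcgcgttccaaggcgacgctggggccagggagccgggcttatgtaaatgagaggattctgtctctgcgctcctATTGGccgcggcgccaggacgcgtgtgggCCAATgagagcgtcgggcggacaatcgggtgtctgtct
Hist1h1b: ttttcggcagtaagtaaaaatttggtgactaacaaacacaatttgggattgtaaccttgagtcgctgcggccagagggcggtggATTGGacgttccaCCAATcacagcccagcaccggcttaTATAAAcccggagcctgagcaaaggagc
Hist1h3b: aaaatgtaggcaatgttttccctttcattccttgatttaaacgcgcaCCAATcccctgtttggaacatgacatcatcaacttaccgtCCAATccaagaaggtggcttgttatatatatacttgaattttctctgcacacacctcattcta
Hist1h2bk: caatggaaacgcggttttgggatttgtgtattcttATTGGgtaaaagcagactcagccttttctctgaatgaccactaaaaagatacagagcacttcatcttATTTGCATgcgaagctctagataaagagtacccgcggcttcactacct
Hist1h2aa: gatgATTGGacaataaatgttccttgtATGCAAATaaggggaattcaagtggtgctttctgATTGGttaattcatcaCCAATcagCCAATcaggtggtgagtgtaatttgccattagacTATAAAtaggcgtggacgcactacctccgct
H3f3b: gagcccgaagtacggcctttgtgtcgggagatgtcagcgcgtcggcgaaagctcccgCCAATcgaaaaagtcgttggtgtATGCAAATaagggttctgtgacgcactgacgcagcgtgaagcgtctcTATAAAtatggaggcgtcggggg
H2afz: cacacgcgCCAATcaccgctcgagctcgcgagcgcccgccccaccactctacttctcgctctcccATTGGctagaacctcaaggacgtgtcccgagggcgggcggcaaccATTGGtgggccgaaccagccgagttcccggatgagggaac
H2afy: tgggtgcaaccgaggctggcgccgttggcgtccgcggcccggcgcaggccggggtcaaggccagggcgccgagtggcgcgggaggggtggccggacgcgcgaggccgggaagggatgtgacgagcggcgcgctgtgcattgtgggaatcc

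The windows lie at chr2:186490765-186490914 on the reverse strand for Hist2h2aa2, chr17:47421725-47421874 on the forward strand for Hist1h1b, chr17:47419046-47419195 on the forward strand for Hist1h3b and chr17:47181941-47182090 on the reverse strand for Hist1h2bk. Those of Hist1h2aa, H3f3b, H2afz and H2afy lie at chr17:41599673-41599822 (reverse), chr10:101757637-101757786 (reverse), chr2:229028945-229029094 (forward) and chr17:8484400-8484549 (forward). Hist2h2aa2 was chosen as an abundant replication-dependent gene with 1 annotated model (the matched gene with a higher mean, Hist2h3c2, pools 5 copies), Hist1h1b as a linker histone, and Hist1h3b, Hist1h2bk and Hist1h2aa because their model to control differences are described later. The Hist1h3b window lies close to that of Hist1h1b, but the measured models start far apart, at 43616247 and 44766313. The window shown for Hist1h3b may thus belong to another H3 copy. The Hist2h2aa2 window is on the reverse strand. The measured Hist2h2aa2 model is on the forward strand and that of Hist2h2aa3 on the reverse. The window shown for Hist2h2aa2 may thus belong to Hist2h2aa3. The variant genes H3f3b, H2afz and H2afy encode histones H3.3, H2A.Z and macroH2A.

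Over the 250 bases before the start, a CCAAT box was found in 24 of 25 replication-dependent genes and in 5 of 8 variant genes, beside 34.0% of all 33469 promoters. The TATA letters were found in 17 of 25 replication-dependent genes, in 1 of 8 variant genes and in 12.9% of all promoters. The octamer, an element known from H2B promoters, was found in 5 of 8 H2B genes, 5 of 11 H2A genes and none of the 4 H1 and 2 H3 genes matched. The windows of Hist1h2aa and Hist1h2ba overlap, as do those of Hist2h2ac and Hist2h2be, so each pair shares an octamer counted for both genes. The octamer was found in 1.56% of all promoters, and among the variant genes in H3f3b alone. H3f3b thus carried all 3 motifs in the 150 bases shown, while H2afy carried none. The strand of the RefSeq gene also differed from that of the measured model in Hist1h2ah and Hist1h2ao. The motif counts thus hold for the RefSeq genes of these names, which are not in every case the measured copies. A match of letters is a description and was not tied to any measurement of binding here.

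The deposited transcript models of the classes differed in structure. Of the 52 replication-dependent transcripts, 46 were annotated models and 6 were assembled from the reads, and 43 of the 46 annotated models had a single exon. The lengths of 39 of these models were multiples of 3, and the most frequent lengths were 411 bases (9 models) and 393 bases (9 models), followed by 312 bases (8 models), so these FPKM are in most cases per coding length. Of the 27 variant transcripts, 11 were annotated and 16 were assembled. Annotated models held between 91.8% and 94.6% of the replication-dependent FPKM in each library but between 37.7% and 77.2% of the variant FPKM.

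In the coordinates of the table, whose genome build is not given in the sources used here, 34 of the annotated replication-dependent models lay on chromosome 17 between 43422454 and 44841382. This stretch is the large histone cluster of the rat and carried 25 of the gene names. A further 7 annotated models lay on chromosome 2, 3 on chromosome 4 and 2 on chromosome 10. The variant genes were scattered over 9 chromosomes. Near-identical copies limit what a gene name means, since Hist2h4a pooled 5 annotated models and Hist2h3c2 pooled another 5, on chromosome 17 and, for Hist2h3c2, also chromosome 2. Names and lengths did not always go together, as Hist1h2ao is a model of 312 bases, the length of an H4 model, and Hist1h2ail1 one of 411 bases, the length of an H3 model. The H2B name Hist1h2bo took most of its FPKM from an assembled transcript of 312 bases, again the length of an H4 model, whose ends coincide with copies of Hist2h4a.

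The lungs contained abundant replication-dependent histone RNA. The summed FPKM of the 35 genes were 706, 882 and 828 in the control samples and 902, 919 and 918 in the model samples, which is between 0.127% and 0.180% of all FPKM in a library. The 10 variant genes summed to 158, 201 and 237 FPKM in control samples and 223, 174 and 267 in model samples. The ratio of the classes, replication-dependent over variant, lay between 3.44 and 5.28 over the 6 libraries. This ratio sets a sum over 35 genes against a sum over 10 and is not a comparison per gene. Per gene the order was reversed, as the median of the gene means over the 6 samples was lower in the replication-dependent than in the variant class. All 45 genes passed the filter on low values (FPKM above 0 in at least 3 of 6 samples), and 30 of the 35 replication-dependent genes and all 10 variant genes had a mean of at least 1 FPKM.

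**Figure D1:**
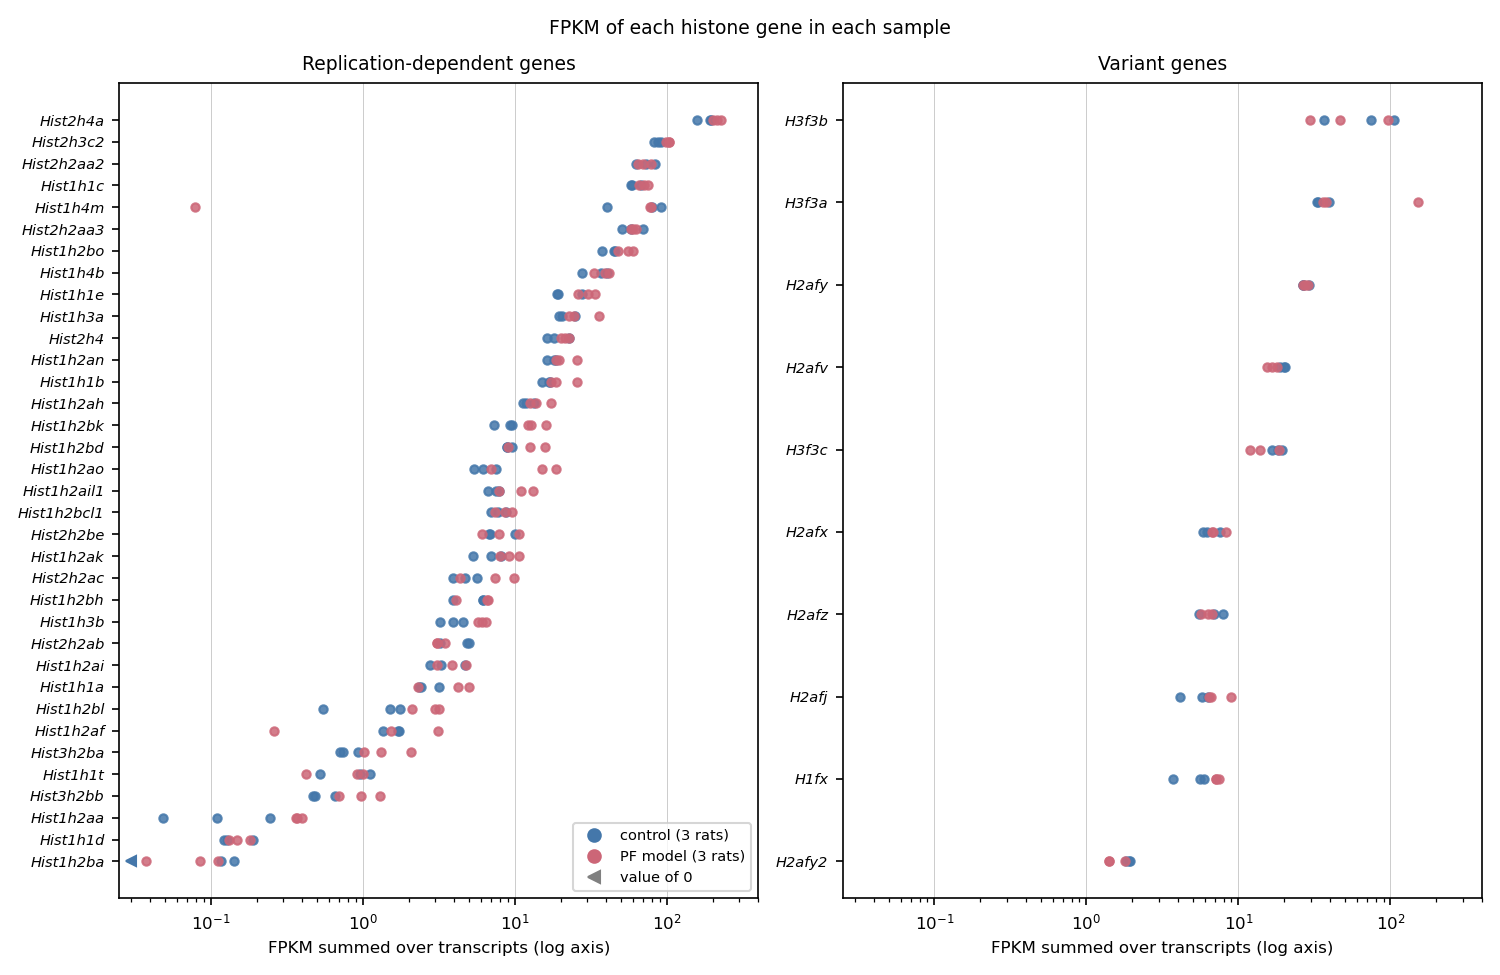
FPKM of each histone gene (horizontal log axis) in each of the 6 samples, replication-dependent genes on the left and variant genes on the right, ordered by their mean, with control samples in blue and PF model samples in red. Replication-dependent levels run from means of 0.0825 (Hist1h2ba) to 198 (Hist2h4a, which pools 5 annotated models), and the near-zero point of Hist1h4m is model 2.

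A few gene names made up most of the replication-dependent total. The 5 names with the highest means, Hist2h4a, Hist2h3c2, Hist2h2aa2, Hist1h1c and Hist1h4m, held between 52.8% and 59.9% of it in each library. Hist2h4a and Hist2h3c2 each pool 5 annotated models, so their levels are sums over copies. The highest single copy of Hist2h4a had means of 61.4 FPKM in control and 75.3 FPKM in model samples, beside 61.9 and 70.5 FPKM for the single model of Hist1h1c. Hist2h4a, which encodes the core histone H4, was as a pooled sum the highest of all 45 gene names. It measured 159, 194 and 192 FPKM in control and 201, 228 and 214 FPKM in model samples. Hist2h3c2, an H3 gene, measured 81.9, 91.8 and 88.1 FPKM in control and 99.1, 103 and 103 FPKM in model samples. In both genes every model sample lay above every control sample.

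Hist2h2aa2 and Hist2h2aa3 are H2A genes whose models lie close together on chromosome 2. Hist2h2aa2 measured 63.0, 83.0 and 73.1 FPKM in control and 70.0, 79.1 and 64.9 FPKM in model samples, and Hist2h2aa3 measured 50.7, 70.1 and 58.4 FPKM against 58.1, 62.9 and 60.3 FPKM. The groups overlapped in both. Hist1h1c, the most abundant linker histone gene here, measured 58.5, 68.0 and 59.2 FPKM in control and 70.7, 75.0 and 65.8 FPKM in model samples, with 1 control sample inside the model range. Hist1h1e, another linker histone gene, measured 19.2, 27.5 and 18.9 FPKM against 30.1, 33.9 and 25.9 FPKM, with 1 overlapping sample in each group. Hist1h4b and Hist1h3a, an H4 and an H3 gene, had means of 36.5 and 24.6 FPKM over the 6 samples and overlapping groups.

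At the low end, 3 genes known from the testis were listed with little signal. Hist1h1t, the testis linker histone, had between 0.424 and 1.12 FPKM, and Hist1h2ba, the testis H2B, between 0 and 0.143 FPKM. Hist1h2aa, the testis H2A, had between 0.0487 and 0.398 FPKM, which corresponds to between 0.887 and 7.03 reads in a library when reads are estimated as coverage times length divided by 150. Tnp1, a marker of testis germ cells, lay between 0 and 0.223 FPKM.

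The comparison of PF model and control samples asked which histone genes differ in bleomycin-treated lungs. No histone gene passed an adjusted p below 0.05 (Benjamini-Hochberg over 19645 gene names, limma), the lowest adjusted p of a member being 0.933, and 0.0102% of all gene names passed. At an unadjusted p of at most 0.05, 12 of the 45 genes were higher in the model samples and 1 was lower. Of these, 11 of the 35 replication-dependent genes were higher and none was lower, beside 2.14% of all gene names higher and 2.77% lower. Of the 10 variant genes, 1 was higher and 1 lower. The 11 genes are not independent of each other, since several share nearly identical sequence and 1 cluster.

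Most replication-dependent genes had a higher mean in the model group, by a small amount. The log2 ratio of group means was above 0 in 30 of 35 replication-dependent genes with a median of 0.26, in 5 of 10 variant genes with a median of -0.06, and in 47.7% of all gene names tested with a median of -0.01. All 3 model samples lay above all 3 control samples in 10 replication-dependent genes and below them in none, while 4.82% of all gene names lay above and 5.87% below. Among the variant genes, 2 lay above (H1fx and H2afj) and 2 below (H2afv and H2afy2). The count of 11 fell to 5 without control 1, to 6 without control 3 and to 5 without model 2. It was 19 after rescaling each library to the same summed FPKM, which also raised the median log2 ratio of all gene names tested to 0.07. The share of all gene names past this p under these settings is not given here.

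**Figure D2:**
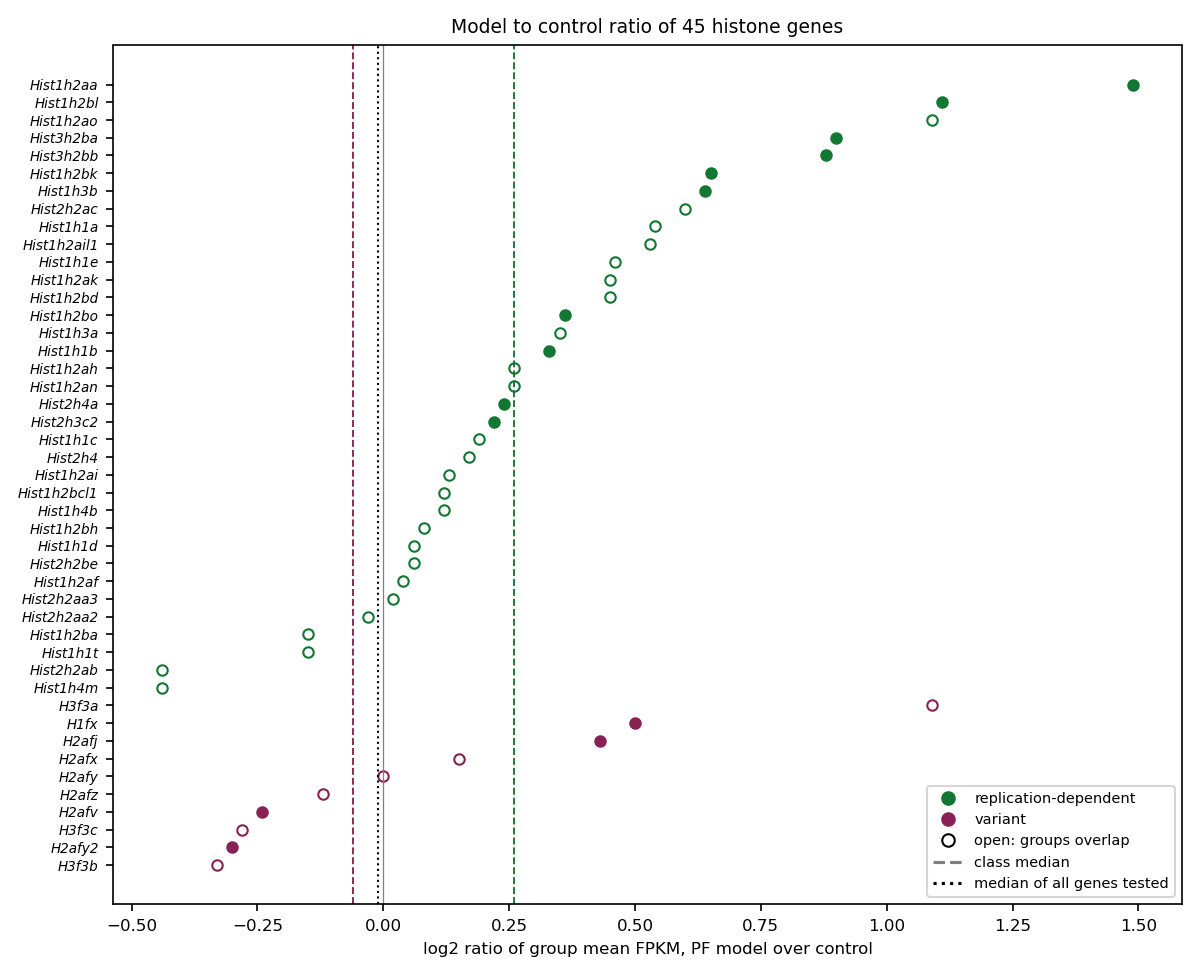
Log2 ratio of the mean FPKM of the PF model group over the control group for each of the 45 histone genes, with filled points where the 3 model and 3 control samples do not overlap, dashed lines at the class medians and a dotted line at the median of all genes tested. Of the replication-dependent genes 30 of 35 lie above 0, and of the variant genes 5 of 10.

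The thresholds of the study combine an unadjusted p of at most 0.05 with a log2 ratio of group means that is at least 1 in size. By these, 3 replication-dependent genes were higher, Hist1h2aa, Hist1h2bl and Hist1h2ao, and no histone gene was lower. Of all gene names, 0.662% passed as higher and 0.855% as lower. All 3 lay at low levels, or were higher in some of the model samples only. Hist1h2bl, an H2B gene, measured 0.551, 1.77 and 1.51 FPKM in control and 2.98, 3.15 and 2.11 FPKM in model samples (log2 ratio of means 1.11, limma adjusted p = 0.933), with every model sample higher. Hist1h2ao measured 5.38, 7.57 and 6.20 FPKM in control and 15.0, 6.97 and 18.7 FPKM in model samples, where model 2 lay inside the control range. Hist1h2aa measured 0.0487, 0.110 and 0.245 FPKM in control and 0.369, 0.398 and 0.363 FPKM in model samples, a log2 ratio of 1.49 that rests on a handful of reads.

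The smallest unadjusted p among the histone genes belonged to Hist1h2bk, an H2B gene of chromosome 17. It measured 7.31, 9.26 and 9.53 FPKM in control and 12.7, 12.2 and 16.0 FPKM in model samples, a difference of 0.59 ± 0.14 (SE) on the log2(FPKM + 1) scale (limma adjusted p = 0.933). Hist1h3b, an H3 gene, followed with 3.95, 4.57 and 3.24 FPKM in control and 6.13, 5.72 and 6.45 FPKM in model samples, a difference of 0.54 ± 0.13 (SE) with the same adjusted p. In both genes the groups did not overlap. Hist1h2bo had 37.2, 45.5 and 45.1 FPKM against 47.8, 59.9 and 55.9 FPKM, also without overlap. Most of this FPKM came from its assembled transcript of 312 bases, and each of its 2 annotated models overlapped between the groups. Its difference was 0.35 with all transcripts and 0.24 with annotated transcripts only (limma unadjusted p = 0.167 for the latter).

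In the opposite direction no replication-dependent gene reached an unadjusted p of 0.05. Hist2h2ab, an H2A gene, measured 3.24, 4.97 and 4.83 FPKM in control and 3.06, 3.48 and 3.07 FPKM in model samples. Its model samples lay within a narrow range that overlaps the lowest control sample. Hist1h4m, an H4 gene, measured 40.4, 91.7 and 79.7 FPKM in control and 77.2, 0.0790 and 79.0 FPKM in model samples. Its mean difference of -1.84 ± 1.65 (SE) came from model 2, in which the gene was almost at 0, and without model 2 the difference was 0.22.

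Summed by family, the families other than H4 and H2A separated the groups. Families were taken from the gene names. The H2B genes summed to 73.3, 89.1 and 90.4 FPKM in control and 101, 118 and 106 FPKM in model samples, a log2 ratio of 0.36. The H2B sums include the assembled Hist1h2bo transcript of 312 bases, which has the length of an H4 model. That transcript stood at 27.4, 30.6 and 32.2 FPKM in control and 33.2, 44.5 and 41.4 FPKM in model samples. The H3 genes summed to 106, 121 and 111 FPKM against 129.7, 145 and 132 FPKM, a log2 ratio of 0.26. The H1 genes summed to 96.6, 116 and 98.8 FPKM against 122, 140.1 and 116 FPKM, a log2 ratio of 0.28, where the highest control and the lowest model sample are the same after rounding.

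The H2A genes summed to 175, 225 and 193 FPKM in control and 211, 234 and 207 FPKM in model samples and overlapped (log2 ratio 0.14). The H2A sums include Hist1h2ao and Hist1h2ail1, whose models have the lengths of an H4 and an H3 model. The H4 genes summed to 255, 329.8 and 335 FPKM in control and 338, 282 and 357 FPKM in model samples and also overlapped (log2 ratio 0.09). Without Hist1h4m the H4 sums were 214, 238 and 255 FPKM against 261, 282 and 278 FPKM, which no longer overlapped (log2 ratio 0.21). Hist1h4m was left out after its low value in model 2 was seen, so no conclusion is drawn from this separation. Model 2, in which Hist1h4m was almost at 0, had the highest Hist2h4a of the 6 samples. How the reads of H4 copies were divided among models was not tested.

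**Figure D3:**
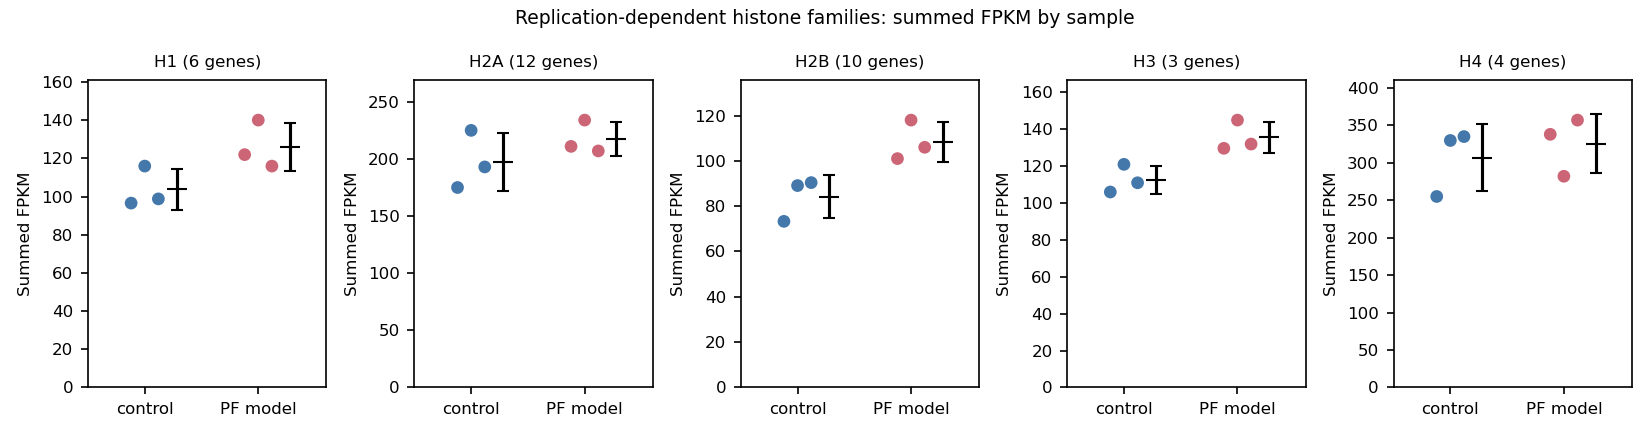
Summed FPKM of the replication-dependent H1, H2A, H2B, H3 and H4 genes in each sample (points, control in blue and PF model in red), with the group mean and SD (n = 3) as black bars. The H2B sums lie between 73.3 and 90.4 in control and between 101 and 118 in model samples, while the H4 and H2A sums overlap between the groups. Families follow the gene names, and the H2B sums include the Hist1h2bo transcript of 312 bases.

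The total of the 35 replication-dependent genes was 805 ± 90.2 FPKM in control and 913 ± 9.80 FPKM in model samples (SD, n = 3), a log2 ratio of 0.18. The 3 model samples lay above the 3 control samples, and the control samples spread more widely. Control 1 was the lowest sample, and without it the log2 ratio was 0.10. The groups overlapped when transcripts were weighted by length (405, 520.1 and 481 against 533, 499 and 533 FPKM). No test was run on the totals, since the member genes were chosen with results of these data known, and the smallest exact permutation p of 3 samples against 3 would be 0.1. The summed fibroblast markers were also higher in every model sample, at 250.2, 256 and 230.1 FPKM in control and 262, 287 and 331 FPKM in model samples. Among them Col3a1, a collagen of scar tissue, measured 174, 178 and 154 FPKM against 189, 204 and 233 FPKM, a log2 ratio of 0.31, while Dcn overlapped, at 13.8, 11.9 and 16.3 FPKM against 12.5, 12.1 and 13.4 FPKM. The part of these markers in the histone values was not tested.

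By chromosome, the annotated models of chromosome 17 summed to 418, 505 and 458 FPKM in control and 528, 601 and 547 FPKM in model samples, without overlap. Those of chromosome 2 summed to 147, 192 and 164 FPKM against 169, 186 and 173 FPKM and overlapped. Those of chromosome 4, which are the 3 H4 models Hist1h4b, Hist2h4 and Hist1h4m, summed to 95.5, 136 and 143 FPKM against 136, 54.8 and 143 FPKM, with the lowest value in model 2. The difference on the log2(FPKM + 1) scale was above 0 in 29 of 34 models of chromosome 17 (median 0.24) and in 5 of 7 models of chromosome 2 (median 0.06). The 2 models of chromosome 10, Hist3h2ba and Hist3h2bb, both lay higher in every model sample, at sums between 1.18 and 1.41 FPKM in control and between 2.02 and 3.06 FPKM in model samples. Whether the chromosomes differ was not tested.

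**Figure D4:**
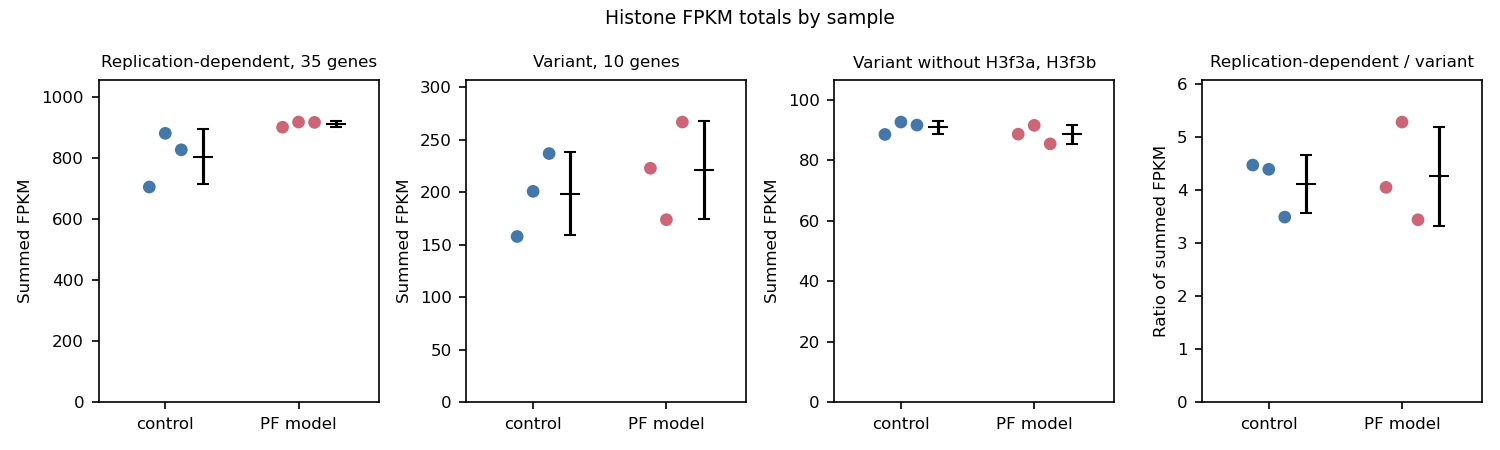
Summed FPKM of the replication-dependent genes, of the variant genes, of the variant genes without H3f3a and H3f3b, and the ratio of the class totals, for each sample (points, control in blue and PF model in red), with the group mean and SD (n = 3) as black bars. Replication-dependent totals lie between 706 and 882 FPKM in control and between 902 and 919 in model samples, and the variant totals overlap. H3f3a and H3f3b were left out after their values were seen.

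The variant total did not separate the groups, at 199 ± 39.8 FPKM in control and 221 ± 46.4 FPKM in model samples (SD, n = 3). Its spread came mostly from H3f3a and H3f3b, which encode the same H3.3 protein. Without these, the other 8 variant genes summed to 88.5, 92.6 and 91.6 FPKM in control and 88.6, 91.5 and 85.4 FPKM in model samples. Against this smaller variant total, the ratio of replication-dependent to variant FPKM was 7.97, 9.52 and 9.04 in control and 10.2, 10.0 and 10.7 in model samples, which did not overlap. H3f3a and H3f3b were left out after their values were seen, so no conclusion is drawn from this separation. With all 10 variant genes the ratio was 4.47, 4.39 and 3.49 in control and 4.05, 5.28 and 3.44 in model samples, which overlapped.

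H3f3a measured 32.7, 33.5 and 39.7 FPKM in control and 37.4, 36.1 and 152 FPKM in model samples. The high value of model 3 came from the annotated transcript of 411 bases, which stood at 136 FPKM there and between 0.569 and 1.13 FPKM in the other 5 libraries. The assembled spliced transcript of 3295 bases stood at 11.5 FPKM in model 3 and between 24.4 and 31.6 FPKM in the others. Reads estimated over these transcripts together were 3755, 3680.5 and 5100.1 in control and 4800.3, 4157 and 4317 in model samples. In reads, model 3 thus lay within the range of the other libraries, and weighting transcripts by length turned the difference of 0.73 into -0.04.

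H3f3b measured 36.6, 74.7 and 106 FPKM in control and 96.6, 46.5 and 29.4 FPKM in model samples, and its annotated transcript alone ranged from 11.9 to 72.3 FPKM. Here the estimated reads moved too, at 5627, 7841 and 13566 in control and 12193, 7869.6 and 4079 in model samples. The groups overlapped on both scales. H3f3c, which RefSeq lists as a pseudogene, had 18.0 ± 1.42 FPKM in control and 14.8 ± 3.36 FPKM in model samples (SD, n = 3) and overlapped.

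**Figure D5:**
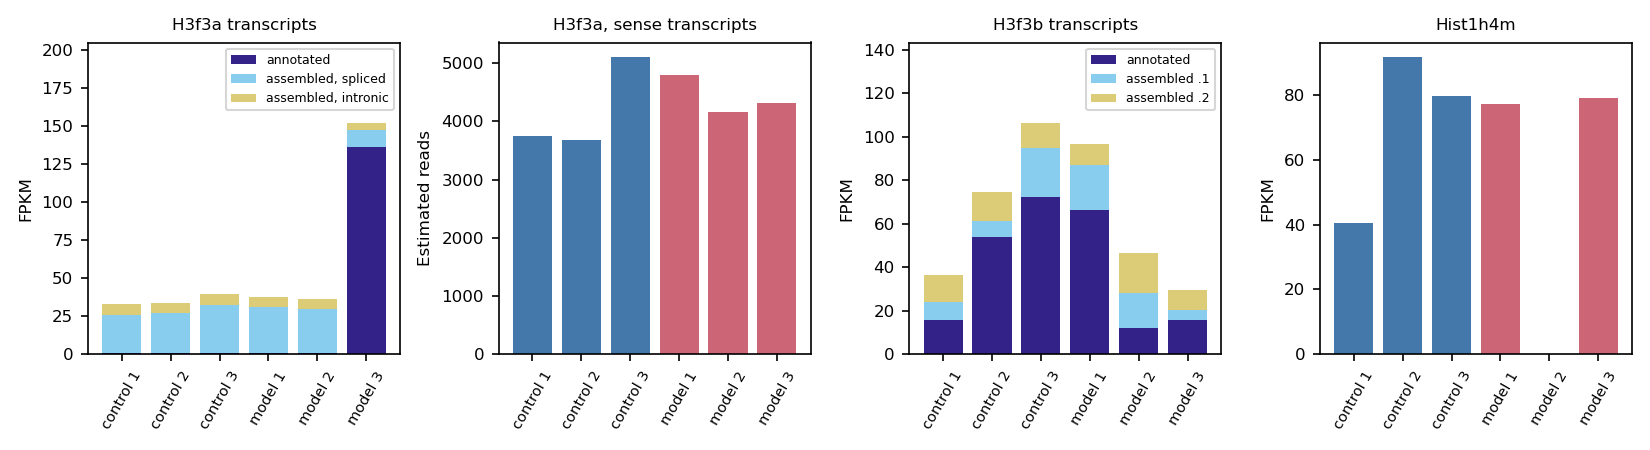
FPKM of the H3f3a transcripts, estimated reads of H3f3a, FPKM of the H3f3b transcripts and FPKM of Hist1h4m in each of the 6 samples (bars, stacked by transcript where a gene has several, otherwise with control in blue and PF model in red). The annotated H3f3a transcript reaches 136 FPKM in model 3 while its estimated reads stay at 4317, and Hist1h4m is at 0.0790 FPKM in model 2.

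Of the H2A variants, H2afv, which encodes an H2A.Z protein, was lower in every model sample, at 18.9, 20.2 and 20.0 FPKM in control and 15.5, 18.0 and 16.6 FPKM in model samples (difference -0.23 ± 0.08 SE, limma adjusted p = 0.933). Part of its FPKM came from assembled transcripts inside its introns, and its annotated transcript overlapped, at between 3.80 and 4.44 FPKM in control and between 3.54 and 4.12 FPKM in model samples. H2afz, the other H2A.Z gene, had means of 6.79 FPKM in control and 6.24 FPKM in model samples and overlapped. Nearly all of its FPKM lay on an assembled transcript of 1923 bases, while the annotated model of 384 bases had between 0.0764 and 0.292 FPKM.

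H2afy, the gene of macroH2A, had a mean of 27.5 FPKM in both groups, and the SD was 1.61 in control and 1.10 in model samples. One of its assembled isoforms, of 2127 bases, measured 3.09, 1.89 and 1.70 FPKM in control and 0.730, 0.953 and 1.20 FPKM in model samples. H2afy2, the second macroH2A gene, measured 1.91, 1.93 and 1.83 FPKM against 1.41, 1.41 and 1.79 FPKM. H2afx, which marks DNA breaks once phosphorylated, had means of 6.53 and 7.24 FPKM with overlapping groups. H1fx, a linker histone variant, measured 5.62, 5.96 and 3.73 FPKM in control and 7.13, 7.13 and 7.42 FPKM in model samples, and H2afj measured 6.28, 4.14 and 5.79 FPKM against 6.41, 8.88 and 6.57 FPKM.

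At the level of transcripts, 78 of the 79 histone transcripts were tested and none passed an adjusted p below 0.05 over 64867 transcripts (lowest adjusted p 0.945, limma), beside 0.0277% of all transcripts. By the thresholds of the study 3 were higher, the annotated models of Hist1h2aa, Hist1h2ao and Hist1h2bl, beside 1.22% of all transcripts. The H2afy isoform of 2127 bases was lower, beside 1.76% of all transcripts. The copies pooled under Hist2h4a had values of their own, from a copy at 48.9, 68.8 and 66.5 FPKM in control and 67.8, 87.0 and 71.2 FPKM in model samples to a spliced model of 1296 bases at between 6.02 and 8.07 FPKM over the 6 libraries. Of the 5 copies of Hist2h3c2, those on chromosome 17 ranged from 8.80 to 28.8 FPKM.

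Genes that act on histone mRNA or protein were compared by lists. None of the 18 measured genes of histone mRNA processing and none of the 24 histone chaperone genes passed the adjusted threshold or the thresholds of the study, and the median log2 ratio was -0.02 in both lists. Slbp, which binds the stem-loop of histone mRNAs, had means of 4.96 FPKM in control and 4.27 FPKM in model samples, and Npat, a coactivator of histone genes in S phase, had means of 9.42 and 8.63 FPKM. Snrpb, the highest of the processing list, had means of 19.2 and 20.8 FPKM, and all 3 of these genes overlapped between groups. At an unadjusted p of at most 0.05, 1 of the 18 processing genes was lower, and 1 of the 24 chaperone genes was higher and 1 lower. Of all gene names, 2.14% were higher and 2.77% lower, so these few genes are not read as a result about the lists. They were Tut4, which adds uridines to histone mRNA (19.6 ± 1.74 against 15.5 ± 2.39 FPKM, SD, lower), and among the chaperones Hira and Atrx. Hira, which deposits H3.3, was higher (4.80 ± 0.931 against 7.13 ± 1.43 FPKM). Atrx, which also handles H3.3, was lower (30.4 ± 0.960 against 24.1 ± 3.69 FPKM). Cabin1, the highest chaperone gene, had means of 30.6 and 34.5 FPKM with overlapping groups. Slbp, Npat and Hira are outside the rule for named genes and were chosen after their values were seen.

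Of the 28 measured genes of S phase and proliferation, none passed the adjusted threshold or the thresholds of the study, and 1 was higher at an unadjusted p of at most 0.05, beside 2.14% of all gene names. A log2 ratio above 0 was found in 17 of the 28 (median 0.09), beside 47.7% of all gene names. All model samples lay above all control samples in 5 of them (Mcm2, Ccnb1, Tk1, Cdc45 and Cdt1) and below in 1 (Cenpa), beside 4.82% and 5.87% of all gene names. Their summed FPKM were 97.9, 98.4 and 102 in control and 104, 99.4 and 105 in model samples. The gene past the unadjusted threshold was Tk1, a thymidine kinase of S phase, with 1.77, 1.94 and 1.91 FPKM in control and 2.93, 2.78 and 2.34 FPKM in model samples. Pcna, the sliding clamp of DNA replication, had means of 12.6 and 12.9 FPKM, and Cdc45, a replicative helicase factor and the highest of the list, measured 15.5, 16.2 and 16.6 FPKM in control and 18.5, 17.2 and 16.7 FPKM in model samples. The replication-dependent histones summed to at least 706 FPKM in every library, and these S phase genes to at most 105 FPKM.

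The libraries carried the markers of lung, with a summed FPKM of the 5 epithelial markers between 9863 and 12873 that was led by Sftpc and Scgb1a1. The endothelial markers (2 of 3 genes in the table, Kdr and Cdh5) summed to between 137 and 150.4 FPKM in control and between 113 and 153 FPKM in model samples. The leukocyte markers (4 of 5, led by Ptprc and Cd68) summed to between 50.8 and 67.2 FPKM against between 37.5 and 60.4 FPKM, and the red cell markers (3 of 4, led by Hba-a2 and Hbb) to between 2051 and 2774 FPKM against between 2323 and 3618 FPKM. The fibroblast markers, led by Col3a1 and Col1a1, were the list whose sums did not overlap between the groups, with values given beside the histone totals. Cardiac markers stood out in model 3, where Myh6 and Tnnt2 summed to 9.76 FPKM beside at most 0.708 FPKM in the other 5 libraries, and their part in the values of model 3 was not tested. Without model 3, 31 of 35 replication-dependent genes had a log2 ratio of group means above 0, with a median of 0.34, beside a median of -0.03 for all gene names tested. The ratio of deposited coverage to FPKM corresponds to totals between 42610915 and 48854072 per library.

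No circular RNA was assigned to a histone gene among the 5216 of the circular RNA table, which come from 2881 host genes. These rest on 14904 back-splice reads over the 6 libraries, and 0 reads of them allow a share of up to 0.0201%, for counting error only.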

How the data were processed

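Whole-lung RNA of 3 control and 3 PF model rats was compared, with groups from the labels. The authors deposited FPKM per transcript, estimated by StringTie and Ballgown after trimming (Cutadapt), mapping (Bowtie2, Tophat2) and StringTie assembly of the reads. The submitters' processing notes also name HISAT2. The genome build, annotation release and strand setting of the quantification are not given in the sources used here. The authors also deposited per-base coverage, a signal not scaled for library size, and raw counts of back-splice reads of circular RNAs from CIRCexplorer, with SRPBM, a signal per total.

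FPKM were summed over the transcripts of each gene name, so reads assigned to a short transcript add more FPKM than the same reads on a long one. Names detected (FPKM above 0) in 3 or more of 6 libraries (19645) were fitted with limma 3.58.1 (trend, two-sided) in R 4.3.3 on log2(FPKM + 1), a scale that understates the change of low genes. Reads were estimated as coverage times length over 150. FPKM are not counts, so no counting intervals are given for them. The members and lists were chosen with earlier results of these data known. Named genes were the 10 replication-dependent and 8 variant genes with the highest means, every called gene, the 3 genes with the smallest p in each direction of each class, testis histones, and in the other lists the called genes and the 2 highest. After seeing values, others were added, among them Hist1h1b, Hist1h2ail1, Hist3h2ba, Hist3h2bb, Tk1 and single isoforms. Samples of a group are taken as separate rats.

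On simulated data with 200 of 19587 gene names changed by 2 log2 units, the gene test recovered 95.0% with 14 false calls, and on 64509 transcripts the transcript test recovered 64.5% with 11 false calls. The changed features were drawn from those with a mean log2(FPKM + 1) above 2. The recovery thus does not apply to lower genes or to smaller changes, such as most of those of the histone genes. The alternatives were another pseudocount, other filters, scalings and sums, a replicate block, leaving out each sample, and 4 limits added after the data were seen. Python 3.11.15 was used with pandas 2.3.3, numpy 2.4.6 and matplotlib 3.10.9. Promoter sequences are those of RefSeq, GRCr8. Each of the 24 value columns belongs to 1 labelled sample. Small RNA libraries were not analysed here.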

Additional observations from a re-analysis of the deposited data

How the results depend on the processing

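No histone gene, histone transcript or gene of the other lists passed an adjusted p below 0.05 under any alternative that was run, and the lowest adjusted p of a named histone gene was 0.495, without model 2. The count by the thresholds of the study was 3 and lay between 2 and 3 under all alternatives. The histone genes at an unadjusted p of at most 0.05 numbered 13, and 20 after rescaling to the same summed FPKM, 8 without control 1, 7 without control 3 and 6 without model 2. In the main fit 2.14% of all gene names were higher and 2.77% lower at this p, and their share under the alternatives is not given here. Rescaling also moved the median log2 ratio of all gene names tested from -0.01 to 0.07. With the replicate number as a block, 2 genes passed the thresholds of the study and 12 an unadjusted p of at most 0.05. The samples share only a number, since same-numbered samples did not deviate together (r = 0.0667, 0.0275 and -0.0867 over 14320 genes), and they were not treated as pairs. The log2 ratio of the replication-dependent total was between 0.10 and 0.25 with each sample left out. The log2 of replication-dependent over variant FPKM, 2.05 over the 6 samples, was 2.83 with annotated transcripts only, 2.66 with lengths as weights, 3.25 without H3f3a and H3f3b, and 2.44 with 14 further histone names, the last 2 of these chosen after seeing the data. No name in the table merges several names, so the alternative for merged names gave no other value.

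Of 28 named histone genes, 18 kept their direction under every alternative, and 24 of 417 values changed sign, none of them past the adjusted threshold, and the cause was not tested. With other sums H3f3a went from 0.73 to -0.04 (lengths as weights), H2afz from -0.10 to 0.04 (annotated only), and H2afy from 0.00 to -0.23 (annotated only), -0.00 (lengths as weights) and -0.02 (without intronic and read-through transcripts). Rescaling gave 0.06 for Hist2h2aa2 and 0.00 for Hist1h2ba, which was 0.01 with a pseudocount of 0.1. With each sample left out the ranges were -0.03 to 0.05 for H2afy, -0.22 to 0.01 for H2afz, 0.06 to 1.08 for H3f3a, -0.83 to 0.02 for H3f3b, -0.21 to 0.08 for Hist1h1t, -0.07 to 0.03 for Hist1h2ba, -0.03 to 0.24 for Hist1h4b, -2.88 to 0.22 for Hist1h4m, -0.13 to 0.07 for Hist2h2aa2 and -0.08 to 0.15 for Hist2h2aa3. Among marker genes they were -1.03 to 1.19 for Cd68, -0.13 to 0.07 for Cdh5, -0.50 to 0.28 for Hbb, -0.19 to 0.06 for Kdr, -0.05 to 0.09 for Pcna, -0.09 to 0.90 for Tnnt2 and -0.11 to 0.03 for Tnp1. Cdh5 also gave 0.04 after rescaling, 0.01 with annotated transcripts only and 0.02 without intronic and read-through transcripts, Hbb 0.02 after rescaling, and Pcna -0.05 with lengths as weights.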

Other observations

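The table holds 14 further names that it describes as histones but that do not carry the name patterns used in the report. Of these, 13 could be tested and all 13 had a higher mean in the model samples, beside 47.7% of all gene names tested. Their median log2 ratio was 0.32, and none passed an adjusted p below 0.05 (limma). Together the 14 names summed to 225, 237 and 236 FPKM in control and 291, 304 and 289 FPKM in model samples, without overlap. In 6 of them every model sample lay higher, beside 4.82% of all gene names. LOC100910200 measured 23.4, 22.0 and 45.4 FPKM in control and 50.1, 58.4 and 54.1 FPKM in model samples, and RGD1562378 had 47.1 ± 2.31 FPKM against 58.9 ± 5.71 FPKM (SD, n = 3). These names were picked from the description column after the data were seen, and some may share reads with the copies counted in the report.

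Cenpa, the H3 variant of centromeres, which falls outside the name patterns, measured 0.394, 0.563 and 0.590 FPKM in control and 0.381, 0.282 and 0.379 FPKM in model samples, so that every model sample lay lower (limma adjusted p = 0.933).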
